A study of Mus musculus with 3 samples.

Results

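Foxk1 and Foxk2 are the 2 mouse genes of the FOXK group of forkhead transcription factors. Their peaks were taken from ChIP-seq lists of cultured neural stem cells, as the lines whose gene name, or whose annotation transcript, belonged to either gene. Foxk1 had 15 Seh1 peaks out of 16113 and 1 IgG peak out of 5314. Foxk2 had 0 Seh1 and 0 IgG peaks. As a background, 31.9% of protein-coding genes had at least 1 Seh1 peak by name and 11.3% at least 1 IgG peak. The pair was chosen by the number of Seh1 peaks that Foxk1 had, so that number is a description and is not tested. All 15 peaks were assigned through the gene name, which is the gene of the nearest transcription start site (TSS), and 0 through a Foxk1 or Foxk2 transcript.

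The study profiled the nucleoporin Seh1 on chromatin, and its title concerns repression of p21 in the developing neocortex. The Seh1 immunoprecipitation, the IgG immunoprecipitation (an antibody without a chromatin target) and the input chromatin were 1 library each. All were made from wild-type primary neural stem cells, grown from P0 mouse cortex on laminin and poly-L-ornithine in medium with EGF and bFGF. Peak lists of the Seh1 and the IgG library were used; both are named after the input in the file headers, and no separate input values were used here. There was no replicate, the read depth behind each peak is unknown, and the deposited score was 0 for every peak of both lists. A peak list holds no expression values, so the labelled cell type could not be checked against its markers.

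Seh1 belongs to the Y-shaped scaffold complex of the nuclear pore, and some nucleoporins are also found on chromatin. FOXK proteins bind DNA through a forkhead domain and carry a forkhead-associated domain that binds phosphorylated partners. They recruit the Sin3 corepressor and the BAP1 deubiquitinase complex, they enter or leave the nucleus under the control of mTOR and GSK3, and they are known to restrain autophagy genes and to raise glycolytic genes. Foxk1 was first described as a myocyte nuclear factor.

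The Seh1 peaks given to Foxk1 did not lie in Foxk1. The gene spans 60.5 kb of chromosome 5 in mm10 (GRCm38), from 142401497 to 142462015, and held the centre of 0 Seh1 and 0 IgG peaks; 33.7% of protein-coding genes of 0.5 to 2 times its length held a Seh1 peak centre. All 15 Seh1 peaks lay upstream of its TSS, between 65.8 and 558 kb away, with a median of 351 kb. Of these, 11 lay inside Sdk1, which encodes the immunoglobulin-family adhesion protein sidekick 1, known for its part in the layered wiring of the retina. The other 4 lay in the 186 kb between the end of Sdk1 and the start of Foxk1. Sdk1 spans 974 kb, from 141241497 to 142215586, and is named here because the authors' annotation places these peaks in its transcript; it was singled out after the values were seen.

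The peaks lay farther from their TSS than most of the list, a trait that some other genes given many peaks by the nearest TSS shared. Of the Foxk1 peaks 15 of 15 lay over 50 kb from the TSS, whereas 42.1% of the other 16098 Seh1 peaks did (95% exact binomial interval 41.3 to 42.8%). Over 200 kb lay 11 of the 15 (73.3%, 44.9 to 92.2%), and 12.1% of the other Seh1 peaks (11.6 to 12.6%). These intervals cover counting error only, and peaks of 1 locus are not independent of each other. The median distance over all Seh1 peaks with an annotated TSS was 37.8 kb. For Tshz3, Cdh26, Ptpru and Hpcal1, which were given 16, 11, 10 and 10 Seh1 peaks, the median distances were 239, 220, 260 and 306 kb. These are the largest medians among the genes of like length with the most Seh1 peaks. In the others, Gm21119, Agtpbp1, Golph3 and Ajap1, the medians were 46.5, 133, 144 and 145 kb. Outside this range of length, Gm15319 and Gm17019, given 10 and 11 Seh1 peaks, had medians of 18.3 and 18.8 kb, below that of the list. Also outside it, Tbc1d22a, Slc10a2 and Lrrc4c, given 13, 10 and 10, had medians of 402, 465 and 648.5 kb. For 5730507C01Rik and Cdh9, given 22 and 10, the medians were 804 and 854 kb. These 5 medians were above that of Foxk1, and the remaining protein-coding genes given 10 or more Seh1 peaks had medians below it.

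**Figure D1:**
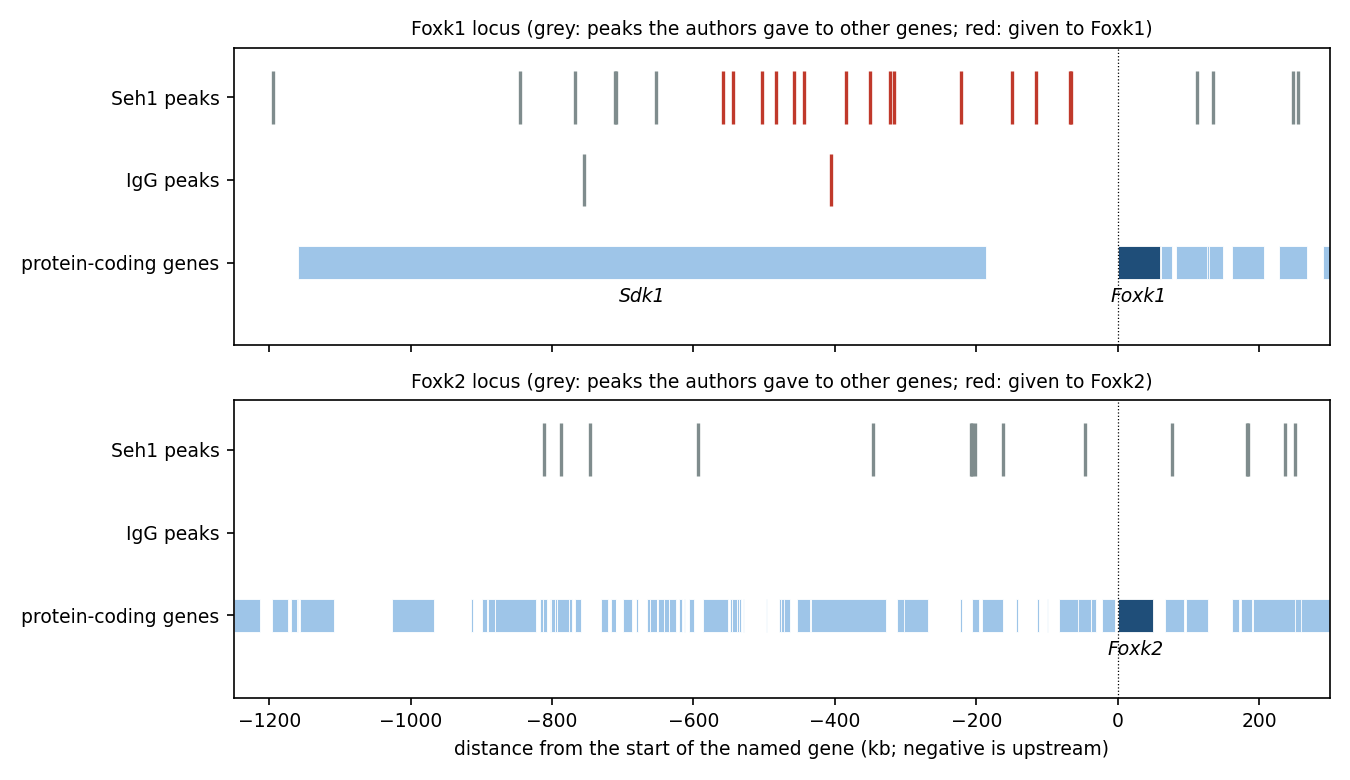
Seh1 peaks, IgG peaks and protein-coding genes around Foxk1 (upper panel) and Foxk2 (lower panel), drawn at the same scale against the distance in kb from the start of each gene; red ticks are peaks given to the named gene and grey ticks are peaks given to other genes. The 15 red Seh1 ticks lie between 65.8 and 558 kb upstream of Foxk1, 11 of them over Sdk1, and the Foxk2 panel has none.

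The farthest peaks formed a run in intron 5 of 44 of Sdk1. The first, at 141843178 to 141843420 and 558 kb upstream of the Foxk1 TSS, had the smallest width of the list, 243 bp. The next 3 lay 545, 503 and 483 kb upstream and were 277, 379 and 351 bp wide. The peak of 379 bp, at 141898725 to 141899103, was the widest of the 15 and wider than 88.2% of all Seh1 peaks. Its centre lay in a B4A element, a short interspersed repeat (SINE), and it was the only one of the 11 peaks in Sdk1 that was labelled with a repeat.

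Further along Sdk1 the peaks were spread over its smaller introns. A peak of 361 bp lay in intron 7, 458 kb upstream of Foxk1, and a peak of 243 bp lay in intron 11, 443 kb upstream. Introns 17, 21 and 22 held peaks of 247, 320 and 284 bp at 384, 351 and 322 kb. One peak was exonic: it covered 142084414 to 142084656 in exon 24 of 45 of Sdk1, had the smallest width of 243 bp and lay 317 kb upstream of Foxk1. The last peak within Sdk1 lay in intron 40, at 142179572 to 142179902, was 331 bp wide and was centred 35.8 kb before the end of that gene.

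The 4 intergenic peaks were the nearest to Foxk1, and 3 of them lay in repeats. A peak of 321 bp, 149 kb upstream, was centred in IAPLTR2a2_Mm, the long terminal repeat of an intracisternal A particle. A peak of 309 bp, 115 kb upstream, was centred in RMER4B, which like IAPLTR2a2_Mm belongs to the ERVK family of endogenous retroviruses. The final pair lay 67.6 and 65.8 kb upstream: a peak of 243 bp in B1_Mus2, a SINE of the Alu family, and a peak of 287 bp at 142335531 to 142335817 with no repeat label. Repeats are labelled by the annotation step only in introns and intergenic sequence, and the sources used here do not say whether reads from repeats were mapped uniquely.

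By class the 15 peaks were 10 in introns (66.7%, 95% exact binomial interval 38.4 to 88.2%), 1 in an exon (6.67%, 0.169 to 31.95%) and 4 intergenic (26.7%, 7.79 to 55.1%). Among the other Seh1 peaks, introns held 36.7%, exons 5.37% and intergenic sequence 54.3%. No Foxk1 peak was classed as promoter, UTR or transcription termination site, classes that held 2.93% of the other Seh1 peaks together, so few or none would be found among 15 peaks of the list. The 10 intron peaks and the exon peak all lay in Sdk1, so they come from 1 locus and are not independent of each other. The intervals in this paragraph cover counting error only, and no difference in class was tested. The share with a repeat label, 4 of 15 (26.7%, 7.79 to 55.1%), stood beside 39.8% of the other Seh1 peaks. Foxk2, with 0 peaks in either list, has no class to compare.

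**Figure D2:**
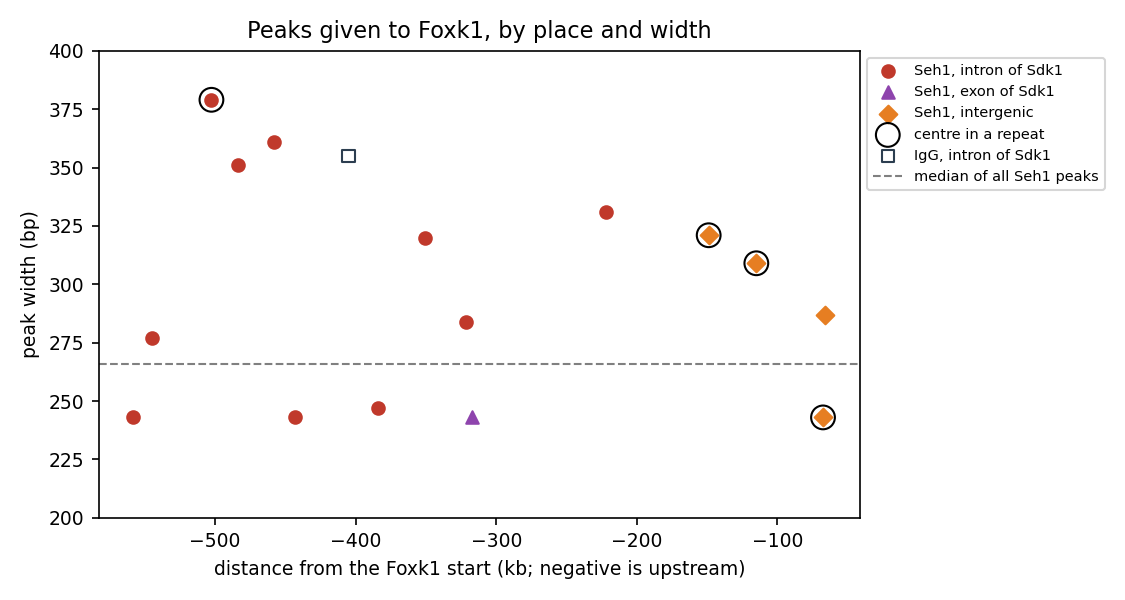
Width in bp of each of the 15 Seh1 peaks and the 1 IgG peak given to Foxk1 against their distance in kb from its start; colour and shape give the class, black rings mark a centre in a repeat, and the dashed line is the median of all Seh1 peaks. Widths run from 243 to 379 bp, with 10 of 15 above the median of 266 bp.

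Peak width, the only measure of a peak's size in these lists, ranged from 243 to 379 bp with a median of 287 bp for the Foxk1 peaks and from 243 to 2002 bp with a median of 266 bp for all Seh1 peaks. Of the 15 peaks, 4 (26.7%) had the smallest width, a share like the 27.2% of the other Seh1 peaks (26.5 to 27.8%). The 15 peaks together covered 4439 bp of the 493 kb they span.

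Within this span the peaks were closer together than was usual for the list, which a choice by peak number favours. The median distance between neighbouring centres was 31.1 kb, from 1.75 to 95.2 kb, against a median of 80.9 kb between neighbouring Seh1 peaks on all placed chromosomes and 59.5 kb on chromosome 5. The closest neighbours were the final intergenic pair, 1.75 kb apart, followed by the intron 22 and exon 24 peaks of Sdk1, 4.65 kb apart. The widest gap, 95.2 kb, lay between the exon 24 and the intron 40 peaks. Among the 11 peaks within Sdk1 alone the median spacing was 27.3 kb. The spacing was irregular, with short and long gaps mixed along the span.

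After the last of the 15, no Seh1 peak was listed for 178 kb. This gap holds the whole of Foxk1 and of its downstream neighbour Ap5z1, which encodes a subunit of the AP-5 adaptor complex. It also holds Gm31127, the long non-coding RNA gene (lncRNA) that is the next annotated gene upstream of Foxk1. The next Seh1 peak, at 142513141 to 142513420, lay 51.3 kb beyond the end of Foxk1. It lay between the ends of Radil and was given to Papolb. A gap of this size was not unusual, since 72.8% of the gaps between neighbouring Seh1 peaks were shorter.

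The single IgG peak given to Foxk1 also lay in Sdk1. It covered 141996225 to 141996579 in intron 14, was 355 bp wide and lay 405 kb upstream of Foxk1. The closest Seh1 peak of the 15 was centred 21.3 kb away, in intron 17. None of the 15 overlapped an IgG peak, and in the whole Seh1 list 60 peaks (0.372%) did. With the limit for a count of 0 set at 3 counts, 0 of 15 allows a share of up to 20%, far above that of the list, so 15 peaks cannot show a difference from it. The IgG peak was wider than 13 of the 15 Seh1 peaks, so its width did not set it apart from them as smaller. Sdk1 as a whole held the centres of 16 Seh1 and 2 IgG peaks.

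The boundary between the peaks given to Foxk1 and those given to Sdk1 follows from the distance to the 2 start sites. The TSS of Foxk1 implied by the authors' distances was 142401497 for each of the 15 peaks, and that of Sdk1 was 141241534, so the midpoint between them lies at 141821515, inside Sdk1. The first Foxk1 peak is centred 21.8 kb past this midpoint. The last peak given to Sdk1, at 141747869 to 141748124, is centred 73.5 kb before it and was 506 kb from its own TSS. Of the 16 Seh1 peaks inside Sdk1, 5 lay before the midpoint and were given to Sdk1, and 11 lay after it and were given to Foxk1.

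Density within Sdk1 differed between the sides of this line. The 580 kb of Sdk1 before the midpoint held 8.62 Seh1 peaks per Mb and the 394 kb after it held 27.9 per Mb. The intergenic stretch from Sdk1 to Foxk1 held 21.5 per Mb. Over the chromosomes, counted between the first and the last gene of each, the list held 6.03 Seh1 peaks per Mb. These are single counts from 1 library in a locus chosen for its count, and no test was made of them.

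Other ways of naming the gene of a peak gave Foxk1 fewer peaks. By the nearest body of a protein-coding gene in the RefSeq table, 13 of the 15 belonged to Sdk1 and 2, the pair at 67.6 and 65.8 kb, belonged to Foxk1. By the nearest body of any annotated gene, 12 belonged to Sdk1, 3 to the lncRNA gene Gm30998 (142350151 to 142363303) and 0 to Foxk1. With only centres inside the gene the count was 0 for Seh1 and 0 for IgG. These namings by gene bodies were chosen after the values were seen.

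Foxk2 lies in another kind of neighbourhood. The gene spans 49.9 kb of chromosome 11, from 121259987 to 121309900, between Narf upstream and Wdr45b downstream, a gene of the WIPI family of phosphoinositide-binding proteins. The nearest start sites of other protein-coding genes lie 1160 kb upstream (Sdk1) and 62.4 kb downstream (Ap5z1) of that of Foxk1, and 22.8 kb upstream (Narf) and 94.5 kb downstream (Wdr45b) of that of Foxk2. The stretch in which Foxk1 has the nearest of these start sites is 611 kb long and held 15 Seh1 peaks and 1 IgG peak, or 24.5 Seh1 peaks per Mb. The same stretch for Foxk2 is 58.6 kb long and held 0 Seh1 and 0 IgG peaks. Peaks were named by the nearest start site, so the counts in these stretches restate the counts by name. The difference between the stretches was not tested.

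The Seh1 peaks that flank Foxk1 were farther from the gene than those that flank Foxk2. For Foxk1 they lay 65.8 kb before the start and 51.3 kb beyond the end. For Foxk2, one peak of 246 bp lay 45.9 kb before the start of Foxk2, at 121213945 to 121214190 in exon 3 of 12 of Hexdc. Another of 243 bp lay 27.0 kb beyond its end, at 121336745 to 121336987 in intron 5 of 9 of Wdr45b. The last IgG peak before Foxk1 lay 405 kb and the next 1977 kb away. The last IgG peak before Foxk2 lay 8625 kb away, and none was listed between Foxk2 and the end of chromosome 11.

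Of the pair, 1 of 2 genes matched the RefSeq promoter table (GRCm38.p6), and the 250 bases before the start of Foxk2 on the plus strand, chr11:121259737-121259986, are shown because Foxk2's distances are counted from this start and no listed peak reaches it. Capitals mark each CG pair.
Foxk2: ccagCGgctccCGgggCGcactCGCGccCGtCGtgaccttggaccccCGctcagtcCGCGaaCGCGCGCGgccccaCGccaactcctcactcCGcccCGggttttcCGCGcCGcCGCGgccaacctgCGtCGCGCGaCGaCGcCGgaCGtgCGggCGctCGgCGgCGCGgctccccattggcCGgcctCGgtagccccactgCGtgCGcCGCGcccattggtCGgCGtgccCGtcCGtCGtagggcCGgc
The stretch holds 48 CG pairs, more than 99.8% of the 32851 promoters in the table, whose median was 6. The nearest Seh1 peak was the Hexdc peak 45.9 kb away.

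Counted in windows of equal size, the surroundings of the pair differed less than the counts by name, 15 and 0. Within 500 kb on each side of the gene's midpoint lay 16 Seh1 peaks for Foxk1 and 11 for Foxk2, with a median of 7 over all protein-coding genes and 16 at the 95th percentile. The Foxk1 windows count peaks for which Foxk1 was chosen, so its place among all genes is a description and was not tested. Within 300 kb the counts were 9 for Foxk1 and 10 for Foxk2, and within 50 kb both were 0. Within 600 kb the counts were 22 for Foxk1 and 11 for Foxk2. IgG peaks within 500 kb numbered 1 for Foxk1 and 0 for Foxk2, with a median of 1. Other protein-coding genes with a midpoint in the 500 kb windows numbered 9 for Foxk1 and 24 for Foxk2, with a median of 15.

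**Figure D3:**
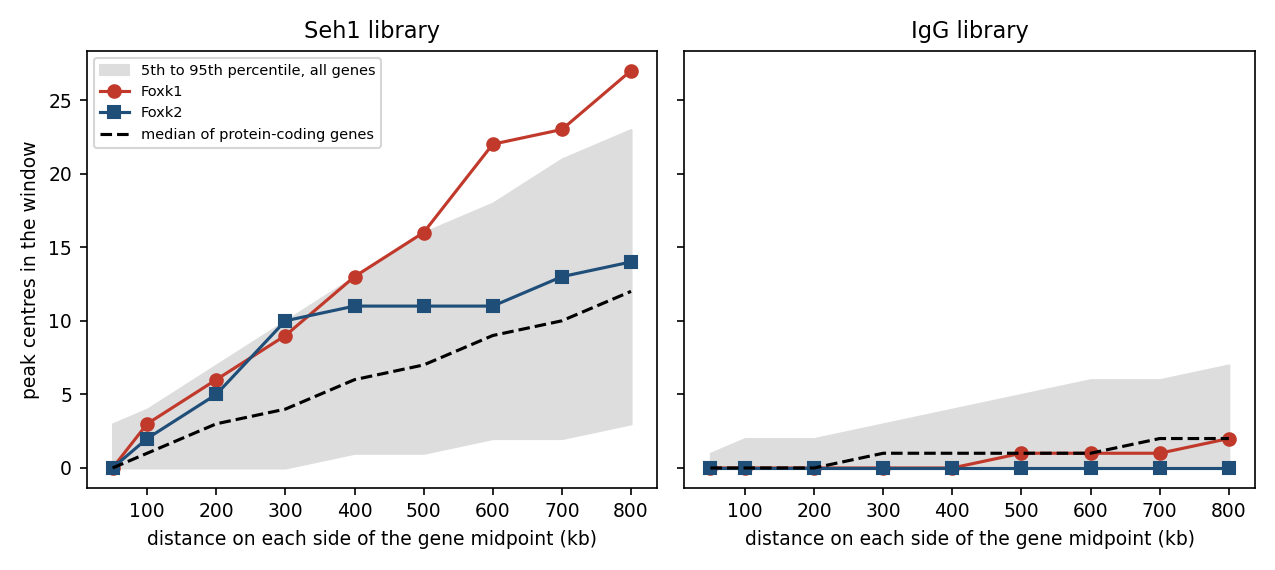
Number of Seh1 (left) and IgG (right) peak centres within a given distance in kb on each side of the gene midpoint, for Foxk1, Foxk2 and, as a dashed median with a grey band from the 5th to the 95th percentile, all protein-coding genes. Foxk1 and Foxk2 stay within 1 Seh1 peak of each other up to 300 kb and at 600 kb Foxk1 reaches 22 and Foxk2 11. Foxk1 was chosen for its Seh1 peaks, so its place against the band is a description and not a test.

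Of the 21775 protein-coding genes, 6 (0.0276%), Foxk1 included, were given at least as many Seh1 peaks as Foxk1, which follows from the choice of Foxk1. Among protein-coding genes of 0.5 to 2 times the length of Foxk1, 42.2% were given a Seh1 peak and 9.57% held an IgG peak centre. At 0.5 to 2 times the length of Foxk2, 39.7% were given a Seh1 peak, 29.3% held a Seh1 peak centre and 8.22% held an IgG peak centre. Most genes of either length thus held no Seh1 peak, as neither Foxk1 nor Foxk2 did.

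The genes most like Foxk1, taken as the protein-coding genes of 0.5 to 2 times its length with the most Seh1 peaks over these 2 libraries, were Gm21119, Tshz3, Ajap1 and Cdh26, followed by 4 genes tied at 10 peaks. Gm21119 had 50 Seh1 and 55 IgG peaks and 4 Seh1 peak centres inside. Tshz3, a zinc finger homeobox gene, had 16 Seh1 and 0 IgG peaks, with 0 inside and all 16 intergenic, at a median of 239 kb from its TSS. Ajap1, which encodes an adherens junction-associated protein, had 12 Seh1 peaks with 3 inside. Cdh26, a cadherin gene, had 11 with 1 inside. Of the tied genes, Agtpbp1, which encodes a tubulin deglutamylase, held 2 of its peaks inside and Hpcal1, which encodes a calcium-binding protein, held 3. Golph3, a Golgi phosphoprotein gene, and Ptpru, a receptor tyrosine phosphatase gene, held 0 inside. Intergenic peaks were 1 of 10 for Golph3 and 4 of 15 for Foxk1, so most peaks of both were not intergenic. They were 10 of 10 for Ptpru, 10 of 11 for Cdh26 and 9 of 12 for Ajap1. For Agtpbp1, Hpcal1 and Gm21119 they were 8 of 10, 7 of 10 and 30 of 50. The median distances to the TSS ran from 46.5 kb for Gm21119 to 306 kb for Hpcal1, and that of Foxk1 was 351 kb.

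**Figure D4:**
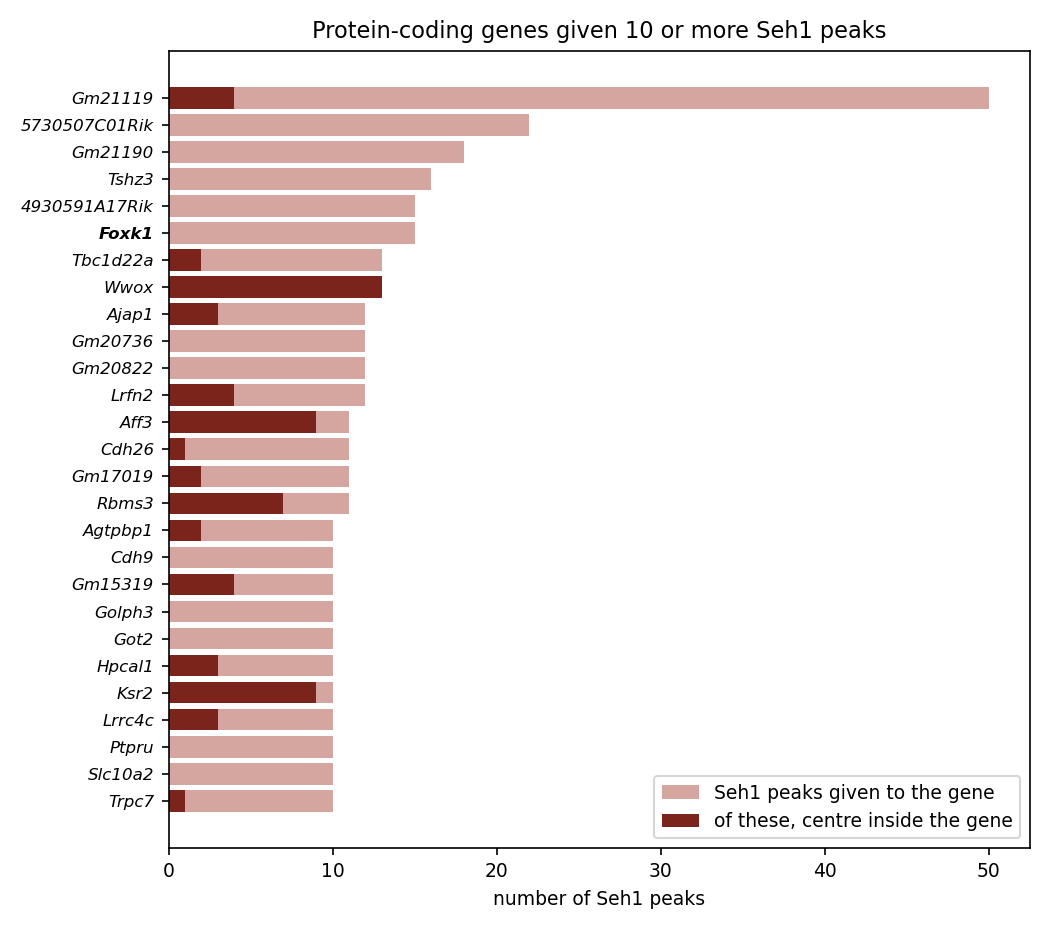
Number of Seh1 peaks given to each protein-coding gene with 10 or more (pale bars) and the number of these with the centre inside that gene (dark bars); Foxk1 is in bold. Of the 27 genes 12 have no dark bar, Foxk1 with 15 peaks among them, whereas all 13 peaks of Wwox lie inside it.

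The other forkhead genes and the partners of FOXK proteins were counted from lists chosen with earlier results of these data known. Of 42 other forkhead genes, 17 were given a Seh1 peak (40.5%, 95% exact binomial interval 25.6 to 56.7%), beside 31.9% of all protein-coding genes. An IgG peak was given to 6 of the 42, beside 11.3% of all protein-coding genes. Both the list and all protein-coding genes had a median of 0 Seh1 peaks. A Seh1 peak centre lay inside 5 of the 42 and an IgG peak centre inside 1, beside 19.5% and 6.26% of all protein-coding genes. The median length of the 42 genes was 4628 bp and that of all protein-coding genes 17220 bp, so these shares are not matched for length. Foxn2 had 4 Seh1 peaks, the nearest 78.8 kb upstream and 0 inside. Foxo1, a target of insulin signalling, had 4, of which the nearest lay 29.1 kb downstream of the TSS in an intron. The peaks of Foxn2, which at 49830 bp is nearly as long as Foxk2, thus lay outside the gene like those of Foxk1. The same held for most of the 17 forkhead genes given a Seh1 peak.

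Of 40 genes for partners, regulators and targets of FOXK proteins, 14 were given a Seh1 peak (35.0%, 20.6 to 51.7%), beside 31.9% of all protein-coding genes. An IgG peak was given to 7 of the 40, beside 11.3% of all protein-coding genes. The median was again 0 peaks. A Seh1 peak centre lay inside 9 of the 40 and an IgG peak centre inside 3, beside 19.5% and 6.26% of all protein-coding genes. The median length of the 40 genes was 29120 bp and that of all protein-coding genes 17220 bp. By role, a Seh1 peak was given to 2 of 7 genes of the Sin3 corepressor, 2 of 9 of the BAP1 deubiquitinase complex, 2 of 8 signalling genes, 4 of 6 glycolytic genes and 4 of 10 autophagy genes. Suds3, a subunit of the Sin3 complex, had 5 Seh1 and 0 IgG peaks, all Seh1 peaks outside the gene and the nearest 34.0 kb downstream of the TSS. Atg7, the E1-like enzyme of autophagy, had 5 Seh1 peaks and 1 IgG peak by name and held the centres of 6 Seh1 peaks and 1 IgG peak. Pik3c3, the lipid kinase that starts autophagosome formation, had 3 Seh1 and 2 IgG peaks, with the nearest Seh1 peak 162 kb away and 0 inside.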

How the data were processed

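The authors deposited 1 peak list per immunoprecipitation, annotated with HOMER annotatePeaks.pl against mm10, per the file headers. Per the submitters' processing notes, Bowtie2 and HOMER were used (no version stated); the human builds listed there go against the headers and the mouse genes. No source used here names the peak caller or its threshold. The score that the authors deposited was 0 in all 16113 Seh1 and 5314 IgG peaks, so neither height nor depth is known. Positions and signed distances in bp are the authors' own. Genes came from the RefSeq table of GRCm38.p6, the assembly of mm10, after genes listed below 3 Mb (except on Y) were removed, which left 49599 genes, 21775 of them protein-coding.

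Peak centres were counted inside genes, in windows and between start sites with Python 3.11.15, pandas 2.3.3 and scipy 1.17.1; the counting was checked on simulated data. Overlap meant at least 1 bp. Start sites came from the RefSeq promoter table or, where it held no entry, from the authors' distances. Intervals are 95% Clopper-Pearson, and the limit given for a count of 0 is 3 counts; no p-value is given, because each group was 1 library and Foxk1 was chosen by its peaks. Spacing was planned for peaks inside Foxk1, which had none, and was taken over all 15. Members and gene lists were chosen with earlier results of these data known. The genes named were the pair, their neighbours, the 5 genes of like length with the most Seh1 peaks (all 4 that tied for the last place are named), and up to 4 per list with the most peaks (ties for the last place left out); other names were added after the values were seen. One gene that this rule names is not reported here. Alternatives are given in the closing section.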

Additional observations from a re-analysis of the deposited data

How the results depend on the processing

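Of 29 alternative values for 12 results, 22 kept theirs within 1.5 times (counts) or within the spread or interval, and 7 did not. Counting only centres inside the gene changed the 15 Seh1 peaks of Foxk1 to 0 and its 1 IgG peak to 0. It also changed the number of protein-coding genes with at least as many Seh1 peaks as Foxk1, which is 6, to 21775, because Foxk1 then has 0. The same setting left 5 in place of 17 other forkhead genes and 9 in place of 14 partner and target genes. Naming by the nearest gene body, chosen after seeing the data, gave Foxk1 2 Seh1 peaks over protein-coding genes and 0 over all genes. Among peaks wider than the smallest width, 11 Seh1 peaks were given to Foxk1, with a median spacing of 38.0 kb and 72.7% in introns. The share in introns and the median width of peaks inside Foxk1 could not be recomputed, since there were none. No paired analysis was possible because each group was 1 library. With depth unknown, a region without a listed peak is one in which none was detected, not one without binding.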

Other observations

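Names taken from the nearest start site departed from the gene a peak lies in across the whole Seh1 list. Of the 7116 Seh1 peaks on placed chromosomes whose centre lay inside a protein-coding gene, 2462 were given to a gene that does not contain them (34.6%, 95% exact binomial interval 33.5 to 35.7%). Among the 27 protein-coding genes given 10 or more Seh1 peaks, 12 had none of these inside. Foxk1 was 1 of the 12, with Tshz3, Ptpru, Cdh9, Golph3, Got2 and Slc10a2 among the others. At the other end, Wwox, a gene of 913078 bp that encodes an oxidoreductase with WW domains, was given 13 Seh1 peaks, all inside it, and held 15. Aff3 and Ksr2 had 9 of 11 and 9 of 10 inside. These genes were picked after their values were seen.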
